A study of Mus musculus with 51 samples.

Results

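The tripartite motif (TRIM) genes were followed through bulk RNA sequencing of mouse tumor cells and tumors in which UBA1, the enzyme that starts the ubiquitin cascade, was depleted, overexpressed or inhibited. Members were the genes whose symbol is Trim followed by a number and at most 1 letter. Of 68 such symbols among 40077 genes in the deposited tables, of which 30345 had a count in any library, 57 reached 10 counts in at least 2 of the 51 libraries and were kept. The 11 symbols below that minimum were Trim15, Trim31, Trim38, Trim40, Trim42, Trim55, Trim58, Trim60, Trim61, Trim75 and Trim80. The libraries came from 16 cultures of Myc-CaP, a mouse prostate cancer line driven by Myc, from 28 Myc-CaP tumors and from 7 tumors of the melanoma line B16-BL6. In culture, Myc-CaP cells without a vector were left untreated, given 1 ng/mL IFN-γ for 18 hours, given 50 nM of the UBA1 inhibitor TAK-243 for 18 hours, or given both agents, and cells carrying a control guide (sgNC) or a guide against Uba1 (sgUba1) were cultured with or without IFN-γ, with 2 libraries in each of these 8 groups. Cells without IFN-γ are labelled as given PBS or the inhibitor alone. The tumors were sgNC (n = 3) and sgUba1 (n = 4) B16-BL6 tumors in female C57BL/6 mice, and, in male FVB mice, sgNC (n = 3) and sgUba1 (n = 7) Myc-CaP tumors, empty vector (n = 3) and Uba1 overexpression (OE, n = 4) Myc-CaP tumors, and Myc-CaP tumors from mice given vehicle (n = 6) or 25 mg/kg TAK-243 intravenously 2 times per week (n = 5). Mice were 6 to 8 weeks old, and because tumor cells were injected in both flanks, tumors of a group may share a mouse. The guides were transfected on a vector that also carries Cas9, and lower rather than remove Uba1 in lines grown from single-cell sublines, so sgUba1 against sgNC also compares clones. The OE construct is a lentiviral Uba1 cDNA driven by a CMV-type promoter. The p-values therefore measure the spread between libraries that may share a clone, a culture or a mouse.

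TRIM proteins are built from a RING domain, B-boxes and a coiled coil, followed by a C-terminal domain that differs between members and picks the substrate. The RING makes most of them E3 ubiquitin ligases, which take ubiquitin from E2 enzymes that UBA1, the E1, has charged. Many members with a C-terminal PRY-SPRY domain act in antiviral defence and are induced by interferons, the TIF1 group (Trim24, Trim28 and Trim33) regulates chromatin, and the MuRF group (Trim54, Trim55 and Trim63) belongs to striated muscle.

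Uba1 RNA followed the labels in every experiment with guides or OE except the Myc-CaP sgUba1 tumors. In TPM, a length-scaled transcript level that can be compared between genes, Uba1 was 196 to 200 in sgNC cells and 109 to 112 in sgUba1 cells, 146 to 158 in B16-BL6 sgNC tumors and 80.7 to 93.0 in B16-BL6 sgUba1 tumors, and 108 to 121 in empty vector tumors and 240 to 283 in OE tumors. In the Myc-CaP tumors labelled sgUba1, Uba1 was 84.4, 83.7 and 88.1 TPM in tumors 1 to 3 and 133, 126, 134 and 141 TPM in tumors 4 to 7, against 121, 131 and 129 TPM in the sgNC tumors. Tumors 4 to 7 were thus within or above the range of their controls, and every direction drawn from this group belongs to tumors labelled sgUba1. The labels give no guide or subline for any of the 7, and the paper describes independent guides against Uba1 in Myc-CaP cells. Chi-square over its degrees of freedom, which measures how far libraries differ, was 10.01 to 22.7 for pairs within tumors 1 to 3. It was 9.71 to 14.96 within tumors 4 to 7, and 61.3 to 86.9 for pairs across these sets. Among sgNC tumors, tumor 2 gave 83.8 and 62.1 against tumors 1 and 3, which gave 13.2 with each other. Whether the 7 come from the same line was not tested and is not known here. All 7 were kept together, since a split by a measured value would not be a comparison of the study's groups. Library totals were 8651963 to 38032284 counts, and the OE experiment had the shallowest. The replicates of sgNC cells differed from each other more than any other pair of cell replicates, with chi-square over its degrees of freedom at 18.1 against 1.84 to 5.81. Melanocyte markers summed to 10268 to 12233 TPM in B16-BL6 tumors and to 7.07 to 16.3 TPM in Myc-CaP tumors. Prostate epithelial markers summed to 1098 to 3284 TPM in Myc-CaP tumors. Tumors also held RNA of the host, and in bulk tissue fewer cells of a type cannot be told apart from less RNA per cell.

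The members cluster in the genome. All positions are in GRCm38 and all 57 are annotated as protein coding, with 16 on chromosome 7, of which 10, all on the list of antiviral and innate sensing members, lie within chr7:104218793-104507849. Promoters of 300 bases, 250 before to 50 after the start of the gene, were read from RefSeq on GRCm38.p6, which gave 56 promoters for 43 members. The interferon-stimulated response element core, searched on both strands as GAAA and again GAAA after 2 bases of any kind, is the sequence bound by interferon-activated transcription factors. It was found in 1131 of 32851 promoters of all genes (3.44%), in 10 of 56 member promoters (17.9%) and in 9 of the 15 promoters of the antiviral list (60.0%). The IFN-γ-activated site, TTCNNNGAA, which reads the same on both strands, was found in 2726 promoters of all genes (8.30%) and in 3 of the member promoters (5.36%). The stretches below are shown because these genes carry the tumor and IFN-γ results that follow, and because those of Trim5 and Trim12c, and of Trim30a and Trim30d, are near copies of each other. Each is 30 bases on the strand of its gene with the motif in capitals, and where 2 matches overlap the capitals run through both.
Trim21, chr7:102565447-102565476, minus strand: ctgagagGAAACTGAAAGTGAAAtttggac
Trim26, chr17:36836979-36837008, plus strand: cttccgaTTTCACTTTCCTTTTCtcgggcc
Trim5, chr7:104288136-104288165, minus strand: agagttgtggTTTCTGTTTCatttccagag
Trim12c, chr7:104353359-104353388, minus strand: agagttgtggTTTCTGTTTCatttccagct
Trim30a, chr7:104465210-104465239, minus strand: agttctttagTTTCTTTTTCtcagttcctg
Trim30d, chr7:104507871-104507900, minus strand: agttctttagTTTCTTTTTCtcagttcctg
Trim34a, chr7:104244457-104244486, plus strand: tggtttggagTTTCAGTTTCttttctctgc
Trim46 (IFN-γ-activated site), chr3:89245395-89245424, minus strand: cttggatgttTTCCAAGAAactgaggacag
The stretches of Trim30a and Trim30d have the same letters. That of Trim12a, not shown, has the same letters as that of Trim5. The antiviral promoters with the motif thus include copies of each other. A match describes the letters in this window and does not show that a factor binds there. Counts of such near copies can also be split between genes when reads are assigned, since 69.05% of the 31-base words of Trim34b, 48.78% of those of Trim34a, 44.1% of those of Trim5 and 43.47% of those of Trim12c also occur in another member, against 10.51% for Trim30a. Values for Trim5, Trim12c, Trim34a and Trim34b are uncertain to that extent.

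Members spanned from abundant regulators of chromatin to genes with a median of 0 in some sources. Ranked by mean TPM over all libraries, the 10 highest were Trim28 (126), Trim24 (63.1), Trim59 (54.5), Trim27 (52.8), Trim41 (45.4), Trim37 (37.8), Trim44 (34.8), Trim33 (29.6), Trim8 (28.9) and Trim25 (24.0). The median TPM was at least 1 for 30 members in cultured cells, 34 in Myc-CaP tumors and 40 in B16-BL6 tumors. Trim28, the corepressor recruited by KRAB zinc finger proteins, was highest in every source, with a lowest, median and highest TPM of 132, 168 and 192 in cells, 91.3, 114 and 138 in Myc-CaP tumors and 87.7, 93.6 and 101 in B16-BL6 tumors. Its cell and B16-BL6 ranges did not overlap.

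The antiviral members were mostly low or absent in cultured Myc-CaP cells, and no culture of B16-BL6 was sequenced. Of the 16 on the list that were kept, 6 had a median of at least 1 TPM in cultured cells, 8 in Myc-CaP tumors and 11 in B16-BL6 tumors. Trim30a, an interferon-inducible member expressed in immune cells, was 0 to 0.0973 TPM in cells, 0.832 to 6.78 in Myc-CaP tumors and 1.95 to 8.12 in B16-BL6 tumors. Trim30d and Trim34a were at 0 TPM in all 16 cell libraries and reached 3.34 and 1.04 TPM in Myc-CaP tumors and 3.60 and 4.01 TPM in B16-BL6 tumors. Trim25, which ubiquitinates the RNA sensor RIG-I, was present in all libraries, at 10.5 to 19.0 TPM in cells and 14.5 to 40.4 TPM in tumors. The summed level of 12 leukocyte markers was 4.17 to 5.17 TPM in untreated cells and 84.7 to 579 TPM in tumors, and its part in these levels was not tested.

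**Figure D1:**
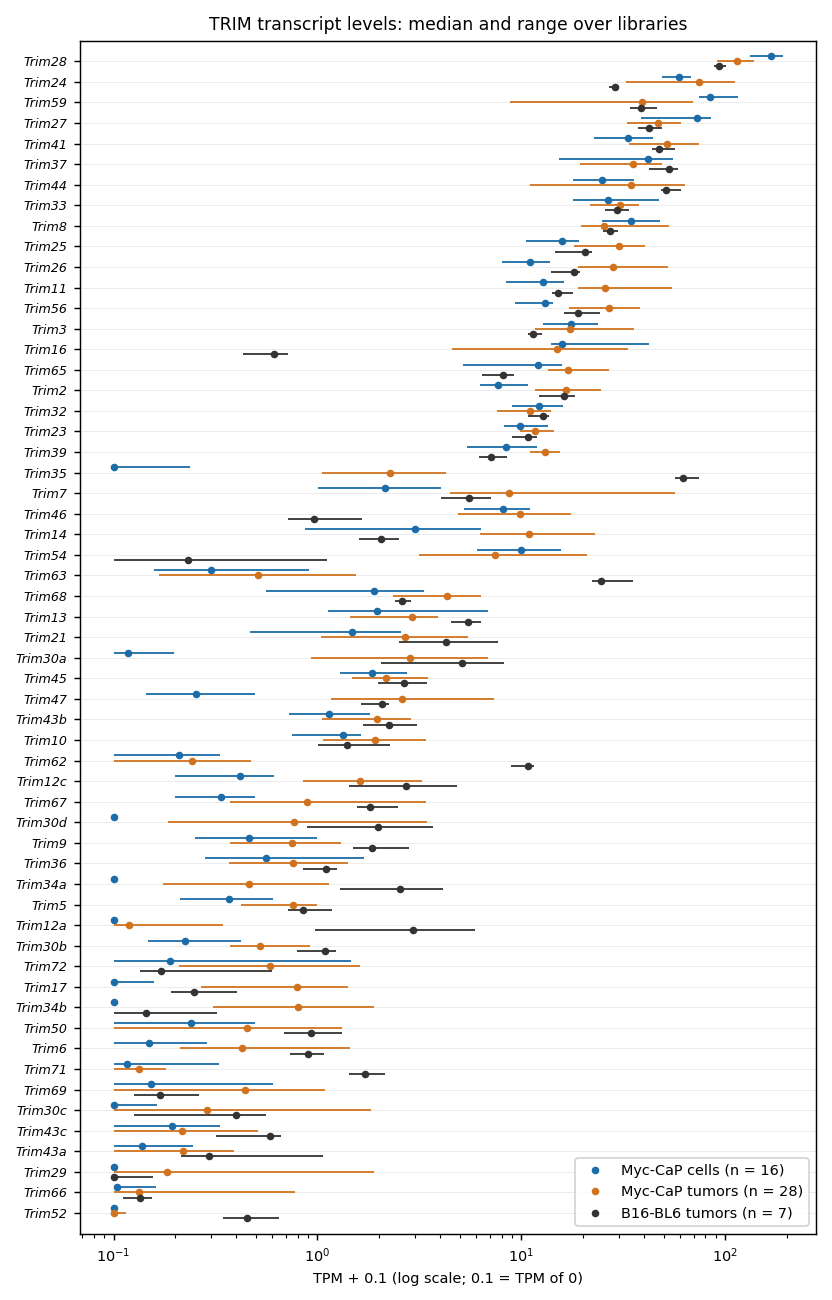
Levels of the 57 TRIM members in 3 sources. The horizontal axis is TPM plus 0.1 on a log scale, points are medians and lines run from the lowest to the highest library of the cells (n = 16), Myc-CaP tumors (n = 28) and B16-BL6 tumors (n = 7). Trim28 stands at the top in all sources, and Trim35 and Trim63 lie far to the right in B16-BL6 tumors only.

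IFN-γ raised a small group of members in cultured cells, and this comparison was used to set the IFN-γ-induced members apart, so its values are a description. Of 39 members tested between untreated and IFN-γ-treated cells, 5 were higher and 3 lower at an adjusted p under 0.05 (edgeR quasi-likelihood test with Benjamini-Hochberg adjustment, as throughout), beside 29.0% of all genes called in either direction, 19.6% higher and 9.39% lower. A further 34 members were the other tested ones and 18 were too low in these cells. Trim21, the cytosolic antibody receptor, was 1.34 and 1.44 CPM (counts scaled to library size) in untreated cells and 3.52 and 3.44 with IFN-γ, a log2 fold change of 1.32 ± 0.29 (SE). It had the largest change of the 5, at a level of about 1 to 4 CPM. Trim28 was 354 and 351 CPM untreated and 425 and 444 with IFN-γ (0.30 ± 0.03). Trim8, a ligase of cytokine and NF-κB signaling, was 59.8 in both untreated libraries and 75.2 and 73.4 with IFN-γ (0.31 ± 0.05). For all 5 induced members no treated library overlapped an untreated one. With 2 libraries per group the same held for members not called, higher (Trim16, Trim25) or lower (Trim11, Trim24). This therefore does not set the 5 apart, and the share over all genes is not given here. Trim27 (0.24 ± 0.06), a nuclear ligase with a PRY-SPRY domain, and Trim46 (0.35 ± 0.13), which bundles microtubules at the start of the axon, completed the group. Trim46 was 9.89 and 10.1 CPM against 13.4 and 12.2, and it was the member nearest to the threshold (adjusted p = 0.0417). It was called in 4 of the 10 settings run, and Trim27 in 8, while Trim21, Trim8 and Trim28 were called in all of theirs.

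The 3 lower members were Trim37, a ligase linked to centrosomes and peroxisomes (−0.23 ± 0.04), Trim33 of the TIF1 group (−0.22 ± 0.05) and Trim23, which also has a GTPase domain (−0.31 ± 0.10). Just outside the threshold were Trim12c (−1.38 ± 0.60, adjusted p = 0.0895) and Trim16 (0.14, adjusted p = 0.133). Trim12c was 0.638 and 1.12 CPM untreated and 0.282 and 0.382 with IFN-γ, so only a few counts carry that value. Trim5, which restricts retroviral capsids, gave 1.07 ± 0.69 (adjusted p = 0.27). Of the antiviral list, 9 members were tested, of which 1 (Trim21) was called, and their median log2 fold change was 0.13 beside 0.04 for all genes tested. Of 16 interferon and signaling genes tested 5 were higher, among them the IFN-γ target Irf1 (1.63). Pml, a TRIM protein under another symbol, gave 0.20 (adjusted p = 0.0555).

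The sgNC cells gave a separate set of libraries with the same cytokine, where none of 38 members was called, beside 3.88% of all genes (3.03% higher and 0.856% lower). At an unadjusted p under 0.05 there were 4, beside 3572 of all 15530 genes tested. DESeq2 and limma-voom each called 1, Trim28. All 5 IFN-γ-induced members had a positive value, as did 24 of the 38 members tested, beside 58% of all genes. Trim21 was 1.40 and 1.34 CPM in sgNC cells and 2.79 and 2.50 with IFN-γ (0.95 ± 0.26, unadjusted p = 0.0041, adjusted p = 0.0691). Trim28 was 354 and 331 against 407 and 395 CPM (0.23 ± 0.06, unadjusted p = 0.0026, adjusted p = 0.0566). Neither gene overlapped between its groups, and neither passed the threshold. Trim8 (0.12), Trim27 (0.07) and Trim46 (0.06) were closer to 0. Irf1 (0.64) was called here too, and 4 of 17 signaling genes were higher. Of the sgNC replicates that stand apart, leaving out replicate 1 gave 2 calls, Trim28 (0.28, adjusted p = 0.00319) and Trim32 (0.35, adjusted p = 0.011), and leaving out replicate 2 gave 3, Trim28, Trim8 and Trim56.

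**Figure D2:**
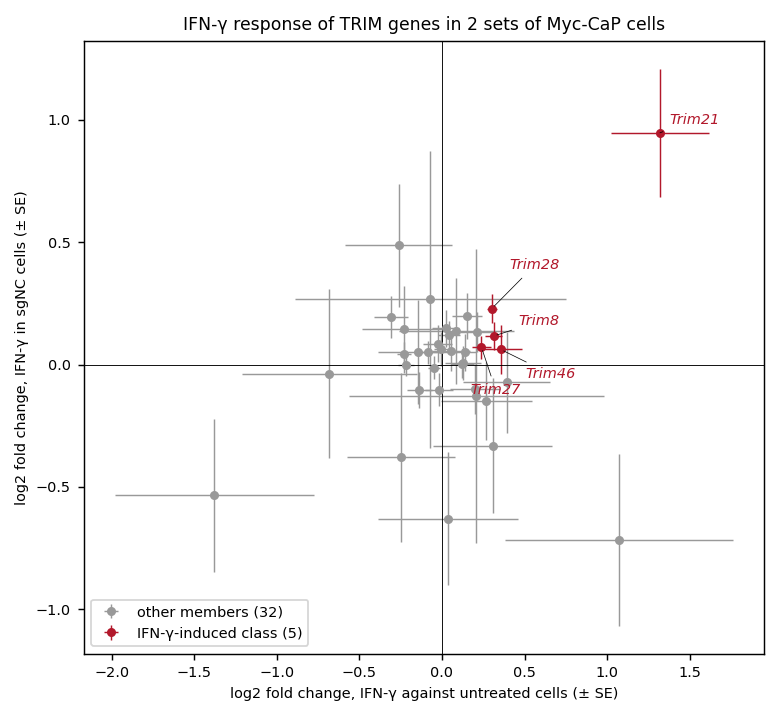
IFN-γ in untreated cells (horizontal) and in sgNC cells (vertical), as log2 fold change with SE bars, for 5 IFN-γ-induced and 32 other members. Groups have 2 libraries each. Trim21 lies at the upper right, at 1.32 and 0.95, and the other 4 induced members lie between 0.24 and 0.35 on the horizontal axis, which chose them, and between 0.06 and 0.23 on the vertical one.

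In the main edgeR fit, the IFN-γ effect on Trim28 and Trim8 differed between sgUba1 and sgNC cells. Tested as an interaction, the IFN-γ effect in sgUba1 cells minus that in sgNC cells was −0.37 ± 0.08 for Trim28 (adjusted p = 0.0368) and −0.34 ± 0.08 for Trim8 (adjusted p = 0.0421). These were the only 2 of 38 members called, beside 4.64% of all genes (0.663% higher and 3.97% lower), a share near that of the members. Trim28 was 397 and 369 CPM in sgUba1 cells and 334 and 362 with IFN-γ, where sgNC cells went from 354 and 331 to 407 and 395. Trim8 was 73.6 and 77.3 CPM in sgUba1 cells and 63.6 and 65.7 with IFN-γ, against 81.6 and 91.7 and then 94.6 and 93.5 in sgNC cells. Both genes were thus lower with IFN-γ in the depleted line and higher in the control line. Each was called in 7 of 14 settings, with an adjusted p of 0.000879 to 0.348 for Trim28 and 0.000429 to 0.351 for Trim8, and 6 of the 8 omissions of a single library left neither.

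For TAK-243 the corresponding value is a description, because it subtracts the step between the untreated and IFN-γ libraries by which Trim28 was placed among the induced members. Of 39 members 1, Trim28, was called (−0.18 ± 0.04), beside 2.38% of all genes (0.371% higher and 2.01% lower), and nothing is read from that count. With the inhibitor, Trim28 was 290 and 286 CPM without IFN-γ and 317 and 312 with it, against 354 and 351 and then 425 and 444 without the inhibitor. The call stood in 7 of 14 settings, and among omissions of a single library only in that of IFN-γ replicate 1.

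**Figure D3:**
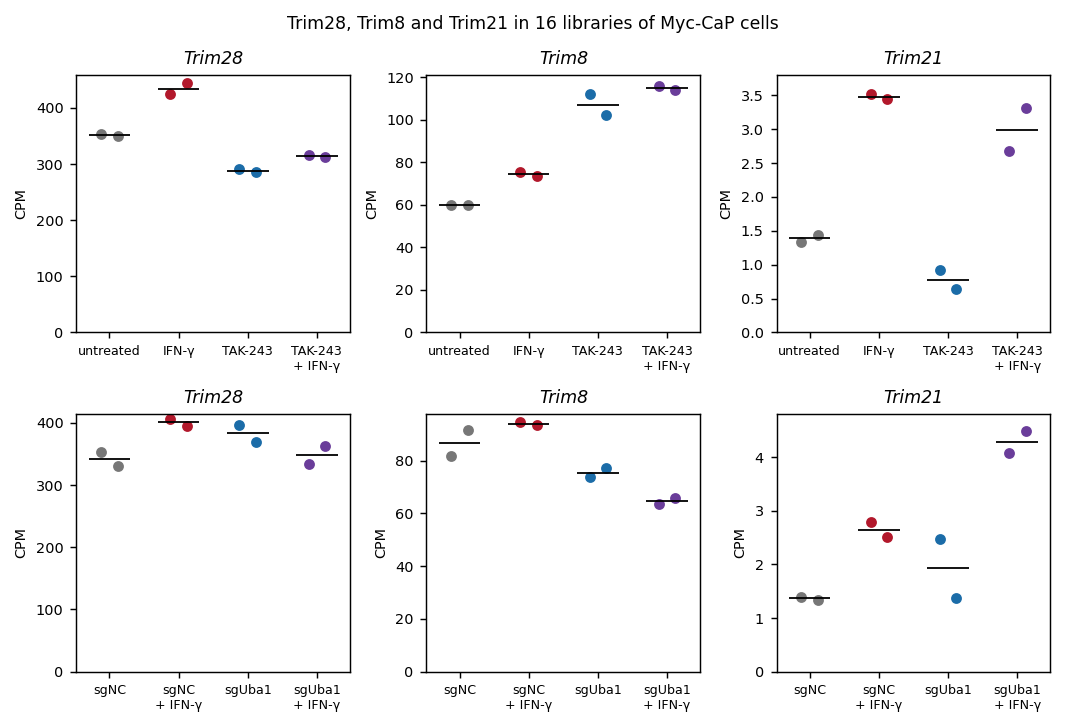
CPM of Trim28, Trim8 and Trim21 in each cell library, with the guide experiment and the TAK-243 experiment in separate rows. Points are libraries (n = 2 per group) and short lines are means. Trim28 rises with IFN-γ from 354 and 351 to 425 and 444 CPM in untreated cells, and reaches 317 and 312 CPM with both agents.

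In sgUba1 cells without IFN-γ, 9 of 38 members were called against sgNC cells, 4 higher and 5 lower, beside 29.7% of all genes (16.2% higher and 13.6% lower), a higher share than among the members. Uba1 itself fell by 0.87 (adjusted p = 3.71e-07). Trim44, a RING-less member with a zinc finger of the kind found in ubiquitin-specific proteases, was 114 and 108 CPM in sgNC and 80.4 and 79.6 in sgUba1 cells (−0.48 ± 0.05, adjusted p = 3.73e-05). Trim54, or MuRF3, was 8.63 and 8.07 against 5.67 and 6.09 CPM (−0.50 ± 0.10, adjusted p = 0.00356). Trim68, described as a cofactor of the androgen receptor, was 2.91 and 4.67 against 1.97 and 2.34 CPM (−0.82 ± 0.23, adjusted p = 0.0177). In these 3 genes the depleted libraries were all below the controls. Trim46 (−0.30) and Trim8 (−0.20) were also lower. Trim16, a RING-less member that takes part in the autophagy of damaged lysosomes, was 29.6 and 27.4 against 37.2 and 36.4 CPM (0.37 ± 0.07, adjusted p = 0.00305). Trim7, which binds glycogenin, rose by 0.70 ± 0.19 from 1.44 and 1.67 to 2.59 and 2.48 CPM. Trim13, anchored in the endoplasmic reticulum, rose by 0.81 ± 0.24. Trim62 had 0 and 2 counts in sgNC and 14 and 12 in sgUba1 cells, too few in the controls for a fold. It is among the 4 higher members, although it passed the count filter through the sgUba1 libraries, where it is high. Without sgUba1 replicate 1 only 4 of the members were called. The antiviral list had none of 9 called in either direction (median 0.02, and −0.00 for all genes tested).

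With IFN-γ present in both lines, 15 of 38 members were called, 5 higher and 10 lower, beside 39.4% of all genes (17% higher and 22.4% lower). Trim44 (−0.52), Trim54 (−0.54), Trim68 (−0.85), Trim46 (−0.67) and Trim8 (−0.54) were lower, with Trim3, Trim39, Trim27, Trim28 and Trim24 at −0.48, −0.37, −0.21, −0.20 and −0.18. The higher members were Trim7 (1.04 ± 0.18, adjusted p = 0.00087), Trim2, a ligase for neurofilament light chain (0.28), Trim62 by its counts, and from the antiviral list Trim21 and Trim12c. Trim21 was 2.79 and 2.50 CPM in sgNC and 4.08 and 4.49 in sgUba1 cells with IFN-γ (0.70 ± 0.22, adjusted p = 0.0252). Trim12c was 0.591 and 0.605 against 0.987 and 1.14 CPM (0.83 ± 0.29, adjusted p = 0.044), and was called in 2 of 9 settings. Of the 5 IFN-γ-induced members, 4 were therefore lower and Trim21 higher in depleted cells with IFN-γ. Without sgNC IFN-γ replicate 2 the count of members was 9.

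TAK-243 moved most members, as it did most genes. Of 39 members, 26 were called, 13 in each direction, beside 66.3% of all genes (32.3% higher and 34.0% lower). The largest decreases were in Trim68, which went from 4.79 and 4.56 to 1.47 and 0.802 CPM (−1.98 ± 0.30, adjusted p = 9.31e-07), and in Trim14, a RING-less adaptor of antiviral signaling, which went from 4.28 and 3.93 to 0.859 and 1.44 CPM (−1.87 ± 0.36, adjusted p = 3.39e-05). Trim37 fell from 130 and 135 to 60.1 and 58.3 CPM (−1.16 ± 0.05, adjusted p = 8.33e-19). In each of them the treated and untreated libraries lay well apart. Trim65, a ligase of the RNA sensor MDA5, gave −1.02 ± 0.10, and Trim7, which was higher in the sgUba1 cells, gave −0.82 ± 0.31 here. The difference between those comparisons was not tested. Trim25 (−0.76 ± 0.08), Trim27 (−0.70 ± 0.06), Trim56 (−0.67 ± 0.07), Trim2 (−0.51), Trim11 (−0.46), Trim39 (−0.32), Trim28 (−0.29 ± 0.03) and Trim26 (−0.29 ± 0.12) were the others.

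Among the increases, Trim16 went from 35.5 and 35.0 to 89.9 and 86.9 CPM (1.33 ± 0.06, adjusted p = 4.4e-18), in the same direction as in the sgUba1 cells. Trim8 went from 59.8 in both libraries to 112 and 102 CPM (0.84 ± 0.05), and Trim33 from 84.3 and 87.7 to 140 in both (0.71 ± 0.04). Trim8 and Trim33 were thus raised while Trim28 and Trim27 were lowered, and of the 3 members of the TIF1 group Trim33 and Trim24 (0.13 ± 0.04) were higher and Trim28 lower. Trim36 went from 0.575 and 1.44 to 3.80 and 4.01 CPM (1.94 ± 0.34), and Trim13 from 2.04 and 1.81 to 3.74 and 5.22 (1.20 ± 0.27). Trim43b (0.90 ± 0.34), which shares most of its sequence with its copies, Trim46 (0.47), Trim54 (0.42), Trim41 (0.42) and Trim59 (0.37) were also higher. Trim71, the stem cell protein LIN41, had 2 and 2 counts untreated and 22 and 10 with TAK-243, and Trim72, a membrane repair protein of muscle, had 1 and 2 against 26 and 7, again too few in the controls for a fold. Both are among the 13 higher members, although they passed the count filter through the libraries with TAK-243, where they are high. Trim21 was 1.34 and 1.44 against 0.92 and 0.642 CPM and was not called (−0.79 ± 0.39, adjusted p = 0.072).

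The antiviral list had 5 of 9 tested members lower and none higher with TAK-243 (Trim14, Trim65, Trim25, Trim56 and Trim26), with a median of −0.67 beside 34.0% of all genes lower and a median of 0.03. With IFN-γ in both arms 4 of the 9 were lower and none higher (median −0.21), beside 36.2% of all genes lower and a median of 0.02. Of the E2 enzymes and ubiquitin genes all 10 tested were called with TAK-243, beside 66.3% of all genes, 9 of them higher, beside 32.3%, Uba1 among them (0.37), and Ube2d1 lower (−0.41). Of the signaling genes, 11 of 16 were higher, Irf1 among them (0.83), and 4 lower, beside the same shares of 32.3% and 34.0%. Of TRIM proteins under other symbols, 1 of 4 was lower, Mid1 (−0.66), a microtubule-bound ligase. The summed prostate epithelial markers were 1478 to 1485 TPM in untreated cells and 491 to 517 TPM with the inhibitor, and the summed leukocyte markers 4.17 to 5.17 and 13.2 to 13.4 TPM. The part of these shifts in the members' values was not tested.

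With IFN-γ in both arms, TAK-243 gave 24 of 39 members called, 11 higher and 13 lower, beside 68.2% of all genes (32.0% higher and 36.2% lower). Trim68 (−2.13), Trim14 (−1.96), Trim7 (−1.71), Trim65 (−1.15), Trim37 (−1.09) and Trim27 (−0.84) led the decreases. Trim13 (1.75), Trim36 (1.53), Trim16 (1.22), Trim9 (1.13), Trim33 (0.82) and Trim8 (0.63) led the increases that can be given as a fold. Trim71 had 0 counts in both IFN-γ libraries and 22 and 9 with both agents, and Trim72 had 0 in both and 16 and 20. Both genes are among the 11 higher members, with the same limit of the count filter. Trim9 was near its threshold (adjusted p = 0.0484). The IFN-γ libraries that serve as controls here are those that chose Trim21, Trim28, Trim8, Trim27 and Trim46 as induced.

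**Figure D4:**
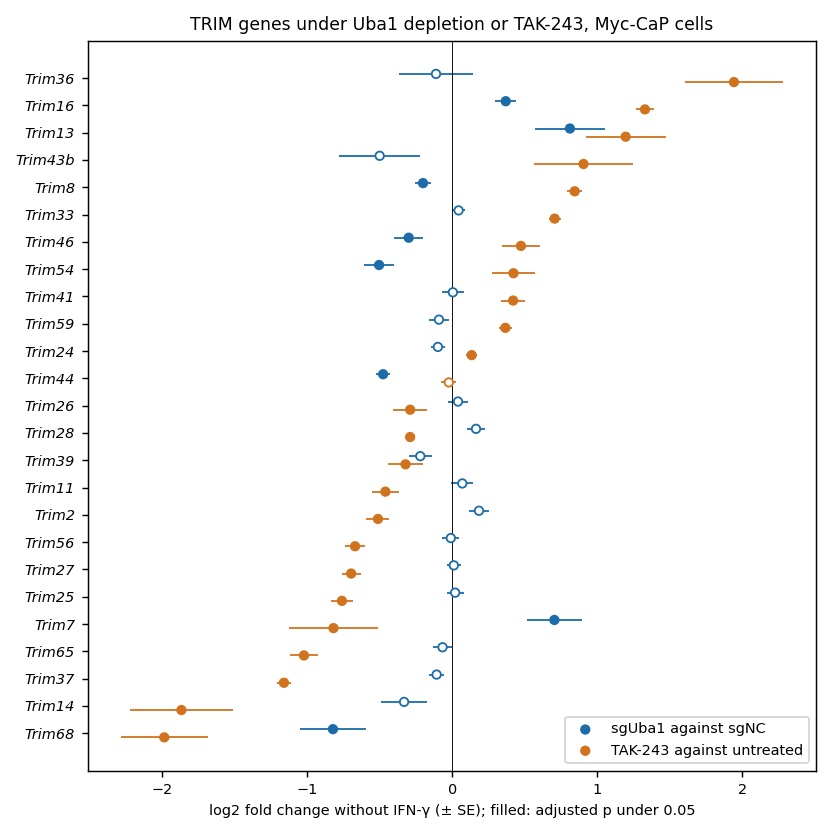
Log2 fold changes with SE bars for the 25 members called in sgUba1 cells or in TAK-243-treated cells, each against its own control, n = 2 libraries per group. Filled points have an adjusted p under 0.05, and Trim62, Trim71 and Trim72, with at most 2 counts per control library, are left out. Trim16 and Trim13 are filled and to the right for both, Trim68 is filled and to the left for both, and Trim8, Trim46, Trim54 and Trim7 lie on opposite sides.

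In B16-BL6 tumors, 2 of 50 members were called between sgUba1 and sgNC, 1 in each direction, beside 0.724% of all genes (0.268% higher and 0.456% lower). Trim26, a PRY-SPRY ligase of the antiviral list whose promoter stretch is given above, was 27.0, 24.8 and 25.4 CPM in sgNC tumors and 34.3, 32.6, 33.5 and 32.6 in sgUba1 tumors (0.37 ± 0.07, adjusted p = 0.041). Trim9, a neuronal ligase that binds the netrin receptor, was 6.39, 6.50 and 6.99 against 4.13, 4.20, 3.61 and 4.40 CPM (−0.70 ± 0.12, adjusted p = 0.0308). For both genes the groups did not overlap, yet each call was lost on leaving out any of the 7 tumors except sgUba1 tumor 4. The summed neural markers were 72.0 to 83.2 TPM in sgNC and 59.5 to 70.9 in sgUba1 tumors, with the neuronal gene Elavl4 at 0 in all. Of these 6 markers only 2 were tested, of which 1 was called lower and the other had a positive value. The summed leukocyte markers moved with Trim26, at 87.7 to 145 and 139 to 190 TPM. Their part in the result was not tested.

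The antiviral list gave mostly positive values in the B16-BL6 sgUba1 tumors, with 13 of 14 tested members above 0 and a median log2 fold change of 0.38, beside 52.6% positive and a median of 0.01 for all genes, but only Trim26 passed the test. Trim12a (0.90), Trim30d (0.79), Trim12c (0.60), Trim21 (0.40) and Trim56 (0.29) did not. Trim30a was 8.67, 5.17 and 17.4 CPM in sgNC and 19.3, 12.6, 15.6 and 10.9 in sgUba1 tumors, which overlapped. Trim8 was 72.7, 70.9 and 70.2 against 61.3, 63.1, 61.3 and 61.9 CPM, which did not overlap, with −0.20 ± 0.05 and an adjusted p of 0.128.

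In Myc-CaP tumors labelled sgUba1, 1 of 46 members was called, beside 3.04% of all genes (1.15% higher and 1.89% lower). Trim5 was 1.12, 0.705 and 0.724 CPM in sgNC and 1.86, 1.75, 1.60, 1.37, 1.90, 2.15 and 1.97 in the tumors labelled sgUba1 (1.07 ± 0.24, adjusted p = 0.0445). The groups did not overlap, and the tumors with sgNC-like Uba1 RNA, 4 to 7, spanned the range of the others. The call stood in 3 of 15 settings (adjusted p = 0.0294 to 0.281) and was lost on leaving out any tumor of either group other than sgNC tumor 1. With Trim5 and the Trim12 genes that share its reads summed, the change was 0.27 ± 0.22 (adjusted p = 0.484). The Trim30 genes summed gave 1.03 ± 0.26 (adjusted p = 0.0605). Trim30d was 0.343, 1.01 and 0.965 CPM in sgNC and 1.35 to 4.22 in the other group (1.87 ± 0.46, adjusted p = 0.0569), and Trim30a was 5.63 to 7.25 against 7.24 to 16.99 CPM (0.98, adjusted p = 0.0757). Leaving out sgUba1 tumor 2 gave calls for Trim30d and Trim30a. Positive values were given by 12 of 14 antiviral members (median 0.33), beside 50.1% of all genes. Trim5, the called member, and Trim30d are among these 12. Both passed the count filter through the tumors labelled sgUba1, where they are high, so their positive values carry that limit. The summed leukocyte markers were 180, 326 and 190 TPM in sgNC tumors and 291 to 579 TPM in the tumors labelled sgUba1, and the summed fibroblast markers 219 to 431 and 268 to 923 TPM. Their part in these values was not tested.

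Trim44, Trim7 and Trim24 differed between tumors 1 to 3 and 4 to 7 labelled sgUba1, as Uba1 RNA did. The libraries of these sets also differed as a whole, by the chi-square values given above. How many members or genes differ in this way is not given here, so the values are a description. Trim44 was 144, 176 and 157 CPM in sgNC tumors, 133, 132 and 122 in tumors 1 to 3 labelled sgUba1, and 43.9, 44.2, 45.5 and 44.3 in tumors 4 to 7 (−0.98 ± 0.42, adjusted p = 0.189). Trim7 was 11.2, 7.05 and 7.40 CPM in sgNC tumors, 13.8, 9.22 and 12.2 in tumors 1 to 3, and 52.4, 51.03, 46.6 and 54.2 in tumors 4 to 7 (1.99 ± 0.64, adjusted p = 0.104). The 4 tumors with the Uba1 RNA of controls thus lay farther from the controls in these genes than the 3 with less. Trim24, a TIF1 member that binds nuclear receptors, was 193, 222 and 214 CPM in sgNC tumors and 156, 145, 169, 117, 121, 100.3 and 82.5 in tumors 1 to 7 (−0.72 ± 0.19, adjusted p = 0.0676). None of these was called by edgeR. DESeq2 called 11 members in this comparison, and its share of all genes is not given here.

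**Figure D5:**
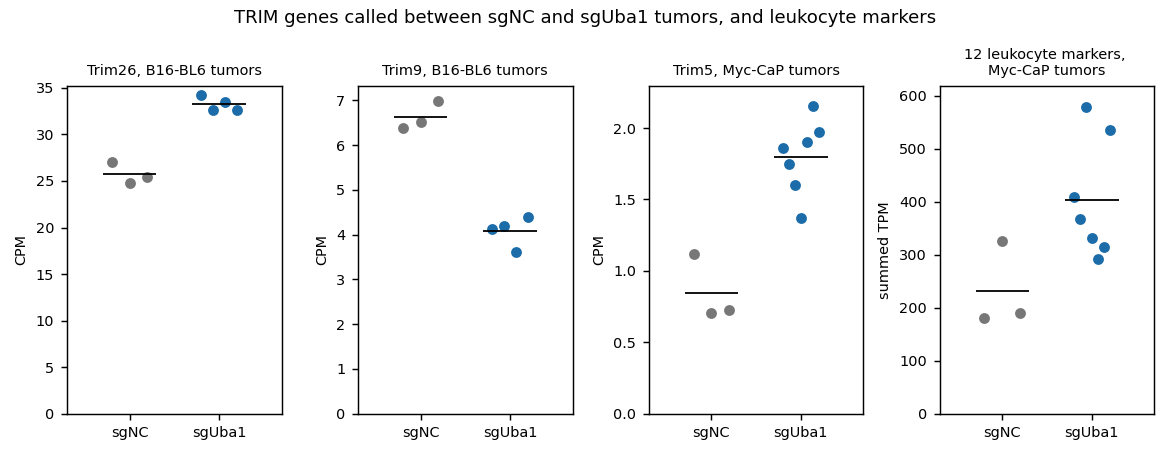
CPM of Trim26 and Trim9 in B16-BL6 tumors and of Trim5 in Myc-CaP tumors, and the summed TPM of 12 leukocyte markers in the Myc-CaP tumors, by group. Points are tumors and short lines are means (B16-BL6 sgNC n = 3 and sgUba1 n = 4, Myc-CaP sgNC n = 3 and sgUba1 n = 7). The sgUba1 tumors lie above sgNC for Trim26 (32.6 to 34.3 against 24.8 to 27.0) and Trim5, and below it for Trim9.

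Overexpression of Uba1 gave no called member among 40 tested, beside 0.0269% of all genes called by edgeR (0.0202% higher and 0.00673% lower). Of the 40, 11 had an unadjusted p under 0.05, beside 2698 of all 14853 genes tested. DESeq2 called 2, Trim16 and Trim2, and its share of all genes is not given here. Trim16 was 25.1, 19.8 and 16.9 CPM with empty vector and 68.5, 45.8, 60.9 and 37.6 with OE (1.37 ± 0.23, adjusted p = 0.118 by edgeR and 1.66e-05 by DESeq2). The groups did not overlap. Trim16 was called higher in cells with sgUba1 and with TAK-243, and was not called in tumors labelled sgUba1 of Myc-CaP (−0.59 ± 0.32, adjusted p = 0.298) or B16-BL6 (0.02 ± 0.25, adjusted p = 0.981), or in TAK-243-treated tumors (−0.06 ± 0.19, adjusted p = 0.902). Trim17 was 2.19, 2.15 and 2.22 against 0.397, 0.585, 0.897 and 1.07 CPM (−1.55, adjusted p = 0.123). Trim30d was 1.31, 1.59 and 1.59 against 0.297, 0.0975, 0.897 and 0.535 CPM (−1.64, adjusted p = 0.177). Trim17 and Trim30d passed the count filter through the empty vector tumors, where they are high, so their negative values carry that limit. Among the antiviral members, Trim30d included, 2 of 10 had positive values (median −0.38), beside 50.4% of all genes. The summed leukocyte markers were 247 to 331 TPM with empty vector and 84.7 to 371 with OE, and skeletal muscle markers were 443 and 155 TPM in OE tumors 1 and 2 and at most 20.5 in the other tumors. Without those tumors 0 members were called.

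TAK-243 in mice gave no called member among 48, beside 0.145% of all genes (0.0867% higher and 0.0578% lower), and DESeq2 called none. Of the 48, 8 had an unadjusted p under 0.05, beside 2587 of all 17299 genes tested. All 14 antiviral members tested had positive values (median 0.24), beside 52.4% of all genes, led by Trim30d (0.72, adjusted p = 0.274) and Trim30b (0.62 ± 0.23, adjusted p = 0.253). Trim30a was 3.61 to 5.06 CPM with vehicle and 3.11 to 8.10 with TAK-243, and Trim28 was 203 to 289 against 175 to 243. Both overlapped between groups, as did every member tested. The summed leukocyte markers were 152 to 248 TPM with vehicle and 136 to 356 with TAK-243, and their part was not tested.

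Many members differed between the tumor models. Between B16-BL6 and Myc-CaP sgNC tumors 31 of 51 members were called, 15 higher and 16 lower in B16-BL6, beside 59.9% of all genes (30.2% higher and 29.7% lower), a share near that of the members. Line, host strain, sex and depth differ together and cannot be told apart. Trim35 was 170, 141 and 145 CPM in B16-BL6 and 3.32, 5.26 and 3.18 in Myc-CaP tumors (5.29 ± 0.21, adjusted p = 2.57e-06). Trim63, the muscle ligase MuRF1, was 28.8, 32.7 and 25.7 against 0.851, 0.596 and 0.557 CPM (5.43 ± 0.21, adjusted p = 2.15e-06). Trim62 was 27.3, 27.5 and 27.2 against 0.511, 0.497 and 0.318 CPM. Trim71 had 326, 369 and 288 counts against 4, 3 and 3. Both are among the 15 higher members, although they passed the count filter through the B16-BL6 libraries, where they are high. For each of these 4 genes every B16-BL6 tumor lay far above every Myc-CaP tumor, Trim71 at no more than 2.04 TPM in B16-BL6 tumors. The summed muscle markers were 11.7, 11.8 and 76.6 TPM in the B16-BL6 tumors and 22.5, 11.2 and 21.2 TPM in the Myc-CaP tumors, which overlapped. In the other direction, Trim16 was 0.875, 1.02 and 1.40 CPM in B16-BL6 and 17.2, 28.3 and 28.7 in Myc-CaP tumors (−4.49 ± 0.29), Trim46 gave −3.55 ± 0.24, Trim14 −2.90 ± 0.24 and Trim24 −1.55 ± 0.09. Trim54 had 1, 0 and 7 counts against 66, 163 and 64, so the MuRF genes Trim54 and Trim63 were high in opposite models. Trim54 passed the count filter through the Myc-CaP libraries.

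Of the antiviral list 5 of 15 were higher and 6 lower in B16-BL6, near the shares of 30.2% and 29.7% of all genes. Trim12a had 55, 27 and 76 counts in B16-BL6 and 0, 2 and 0 in Myc-CaP tumors, and Trim34a (1.88 ± 0.46) and Trim5 (1.14) were higher, while Trim34b, with 2, 0 and 6 counts against 8, 10 and 10, Trim14, Trim65 (−1.22), Trim56 (−0.82), Trim26 (−0.67) and Trim25 (−0.66) were lower. Trim34a and Trim34b, which share much of their sequence with each other, moved in opposite directions. Trim12a passed the count filter through the B16-BL6 libraries and Trim34b through the Myc-CaP libraries, where each is high. The sgUba1 effect did not differ detectably between the models for any of 51 members by edgeR, beside 1.52% of all genes (0.794% higher and 0.725% lower). Of the 51, 12 had an unadjusted p under 0.05, beside 3211 of all 17513 genes tested. DESeq2 called 3 (Trim7, Trim35 and Trim39), and its share of all genes is not given here.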

How the data were processed

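Bulk RNA was sequenced from 51 libraries. Per the labels the RNA was poly(A)-selected, whereas the study's methods describe removal of ribosomal RNA. Transcripts were quantified with kallisto (submitters' notes, version not given in the sources used here) against mm10. The deposited tables hold expected counts, which the authors estimated per gene and which were rounded to whole numbers here, and TPM, scaled by the authors to transcript length and library size. The test planned for counts was used on these rounded estimates. Columns of per-sample values left unused numbered 0.

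Each experiment was fitted with edgeR 4.0.16 in R 4.3.3 (quasi-likelihood, TMM factors, filterByExpr, Benjamini-Hochberg over all genes tested, threshold 0.05), all groups of an experiment together. CPM are TMM-scaled within that fit, and folds use a prior count of 0.125. Alternatives were DESeq2 1.42.0, limma 3.58.1 (voom), RLE factors, no filter, a replicate block, summed near-identical genes and omission of each library. Correlations of deviations between same-numbered replicates were −0.026 to 0.334 in the guide cells and 0.056 to 0.106 in the TAK-243 cells. A shared origin was not established, and the main fits used no replicate block. No libraries were identical. The fits were tested on simulated data. Totals of 8651963 to 38032284 counts set the precision, and lie lowest in the OE tumors.

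The text names the IFN-γ-induced members and those nearest that threshold, the members called per comparison (at most 6 in each direction by size), the 10 highest by TPM and the fixed lists. Trim17, Trim32, Trim39, Trim3 and further called members were named after their values were seen. Members and lists were chosen with earlier results of these data known. Positions are from GENCODE M21 and promoters from RefSeq, both GRCm38. Results for some marker and signaling genes are not reported here.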

Additional observations from a re-analysis of the deposited data

Results flagged for a closer look

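Of 86 gene and group pairs over 18 members, 4 held a tumor far from the others of its group, and about 1 in 20 such pairs would be expected by chance. Trim35 was 149 CPM in B16-BL6 sgUba1 tumor 2, above 126 to 130 in the other tumors of the group. Trim63 was 40.1 CPM in B16-BL6 sgUba1 tumor 4, above 26.3 to 27.6, and that tumor also had the most skeletal muscle marker RNA, at 277 TPM. Trim12c was 2.54 CPM in Myc-CaP sgUba1 tumor 2, below 4.95 to 6.16. Trim46 was 22.5 CPM in Myc-CaP OE tumor 1, above 15.6 to 16.5, and this tumor held 443 TPM of muscle markers. The part of muscle RNA was not tested.

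The IFN-γ effect differed between sgUba1 and sgNC cells in a test of the difference itself, by −0.37 for Trim28 and −0.34 for Trim8 on the log2 scale, each called in 7 of 14 settings. These were 2 of 38 members, beside 4.64% of all genes called, a share near that of the members. The IFN-γ effect on Trim28 with TAK-243 minus that without was −0.18, called in 7 of 14 settings, but this value shares the untreated and IFN-γ libraries by which Trim28 was placed among the induced members and is given as a description.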

How the results depend on the processing

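Across 1260 values under other settings, all for members already called in the main fit, 1096 kept their direction and side of the threshold, 164 kept their direction but lost the call, and 0 reversed. Members that gained a call under another setting are not among these values. Of those lost, 124 came from leaving out a library, 16 from the replicate block, 14 from DESeq2, 4 from limma-voom, 4 from no filter on low counts and 2 from RLE factors. Counts of called members moved with DESeq2 to 5 for IFN-γ in untreated cells, 1 for IFN-γ in sgNC cells, 11 in Myc-CaP sgUba1 tumors, 2 in OE tumors and 3 for the difference between models. Without the filter they were 2 for IFN-γ in sgNC cells, 0 in Myc-CaP sgUba1 tumors and 1 in OE tumors. With limma-voom they were 1 and 0 for the first 2 of these, RLE factors gave 0 for the sgUba1 interaction, and summed near copies gave 0 in Myc-CaP sgUba1 tumors. The cause was not tested.

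The labels give no pairing by replicate number. The replicate block gave 1 member for IFN-γ in sgNC cells, 0 in B16-BL6 and 0 in Myc-CaP sgUba1 tumors, and 21 between models, where 19 of the 31 calls stood. Correlations of same-numbered deviations ran from −0.026 to 0.334 in the guide cells and from −0.3 to 0.483 in TAK-243 tumors.

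Leaving out each library in turn gave 5 to 6 members for IFN-γ in untreated cells, 0 to 3 in sgNC cells, 4 to 10 for sgUba1, 9 to 14 for sgUba1 with IFN-γ, 0 to 4 for its interaction, 21 to 26 for TAK-243, 23 in every omission for TAK-243 with IFN-γ, 0 to 1 for its interaction, 0 to 2 in B16-BL6 and in Myc-CaP sgUba1 tumors, 0 to 1 in OE tumors, 0 in TAK-243 tumors, 24 to 34 between models and 0 to 1 for the difference of models. The 5 came without IFN-γ replicate 2, and the 4 of the interaction without sgNC replicate 2. The added alternatives were chosen after seeing the data, OE without tumors 1 and 2 and TAK-243 tumors without vehicle 6 and TAK-243 tumor 1, and both gave 0. Precision is limited by the 2 libraries per cell group and, in OE tumors, by totals as low as 8651963 counts.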
